A study of Mus musculus with 6 samples.

Results

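CpG methylation was examined at 8 mouse genes of the germ line that carry CpG-rich promoters, namely Dazl, Ddx4, Mael, Sycp3, Sycp1, Slc25a31, Hormad1 and Tdrd1. The genes were taken from a list fixed by name, each with an interval that spans the gene and its surroundings in GRCm38. Of the 359192 windows in the deposited table, 62 overlapped these intervals. They comprised 8 promoter windows, 40 gene body windows and 14 windows in the flanks. Tdrd1 had 18 windows, Sycp1 12, Ddx4 10, Mael 7, Hormad1 6, Dazl 4, Sycp3 4 and Slc25a31 1. Because the list was drawn up from genes known for methylated promoters, the promoter levels below are a description.

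The cells were E14TG2a mouse embryonic stem cells (mESCs), an established line of strain 129/Ola at passages 5 to 28, grown on gelatin in medium with 15% serum and LIF. All 6 libraries came from cells labelled with EdU, fixed in ethanol and sorted by DNA content into G1, before replication, or G2/M, after it. Each phase had 3 libraries, made from 125 ng of DNA by enzymatic methyl sequencing (EM-seq), which protects modified cytosines enzymatically and reads 5-methylcytosine and 5-hydroxymethylcytosine as one signal. The comparison asked whether G1 cells, which are farthest in time from their last replication, held more methylation than G2/M cells. No gene carried an engineered change, and no RNA was measured in these libraries, so whether the 8 genes were silent was not tested here. Read counts behind the percentages were not given, so the depth of each value is unknown and no counting interval could be set.

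Germ cells use a set of genes for meiosis and for the control of transposons by small RNAs that most other cells keep off. Many of these genes have a CpG-dense promoter, and unlike most such promoters they acquire DNA methylation around implantation, which the maintenance methyltransferase DNMT1 then copies to daughter strands after each replication. Repressor complexes that contain MGA, MAX and E2F6 recognise E-box and E2F sequences at many of them.

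The promoters of 4 genes are printed here, 250 bases before to 50 bases after the RefSeq start, read in the direction of the gene with each CpG in capitals. The promoters of Dazl, Sycp1 and Tdrd1 were chosen because their windows were short and methylated, and that of Ddx4 because it held the most CpGs. Dazl lies at chr17:50293571-50293870 on the minus strand, Sycp1 at chr3:102936051-102936350 on the minus strand, Tdrd1 at chr19:56825959-56826258 on the plus strand and Ddx4 at chr13:112652261-112652560 on the minus strand of GRCm38.p6.
Dazl: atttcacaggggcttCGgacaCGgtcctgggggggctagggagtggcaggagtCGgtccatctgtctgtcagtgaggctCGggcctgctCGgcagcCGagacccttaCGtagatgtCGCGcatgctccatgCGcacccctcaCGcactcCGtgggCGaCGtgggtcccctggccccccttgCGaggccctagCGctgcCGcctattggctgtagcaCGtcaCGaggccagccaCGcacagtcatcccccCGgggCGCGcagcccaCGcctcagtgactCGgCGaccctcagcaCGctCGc
Sycp1: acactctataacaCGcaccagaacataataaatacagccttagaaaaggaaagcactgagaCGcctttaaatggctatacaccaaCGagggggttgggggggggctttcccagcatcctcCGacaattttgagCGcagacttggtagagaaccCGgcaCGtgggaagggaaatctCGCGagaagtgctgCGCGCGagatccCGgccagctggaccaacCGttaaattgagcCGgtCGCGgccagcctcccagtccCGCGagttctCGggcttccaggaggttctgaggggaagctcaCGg
Tdrd1: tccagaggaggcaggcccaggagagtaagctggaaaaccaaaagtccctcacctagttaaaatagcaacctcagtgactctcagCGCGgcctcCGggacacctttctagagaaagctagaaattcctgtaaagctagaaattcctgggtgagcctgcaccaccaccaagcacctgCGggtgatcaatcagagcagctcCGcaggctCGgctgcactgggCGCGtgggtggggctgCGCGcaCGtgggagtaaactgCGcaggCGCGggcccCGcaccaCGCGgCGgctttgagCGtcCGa
Ddx4: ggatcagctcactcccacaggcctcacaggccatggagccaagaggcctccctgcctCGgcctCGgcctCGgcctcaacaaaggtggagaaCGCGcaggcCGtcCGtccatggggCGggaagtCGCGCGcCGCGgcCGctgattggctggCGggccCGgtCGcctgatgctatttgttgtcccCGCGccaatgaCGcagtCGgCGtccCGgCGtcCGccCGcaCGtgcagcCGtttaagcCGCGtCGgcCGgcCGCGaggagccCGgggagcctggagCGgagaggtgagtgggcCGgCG

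These 300-base stretches held between 15 CpGs (Sycp3) and 38 (Ddx4), against a median of 7 over 32851 RefSeq promoters. The Ddx4 promoter had more CpGs than 95.0% of them and the Dazl promoter, with 28, more than 85.8%. The E-box CACGTG occurred in 7 of the 8 promoters and in 7.15% of all promoters. Dazl was the exception. GCGGGA, an E2F-like sequence searched on both strands, occurred in 6 of the 8 and in 20.0% of all promoters. The same 6, without Dazl and Tdrd1, held both, as did 1.99% of all promoters. Relative to the RefSeq start, the E-box began at position -11 in Tdrd1, -29 in Ddx4, -94 in Sycp1 and -93 in Slc25a31. Mael carried it farther upstream, at -223. Both sequences contain a CpG themselves, and the shares over all promoters were not matched for CpG number. How often promoters as rich in CpGs carry these sequences was not tested. Neither sequence overlaps the other, and a match describes these letters without showing that a factor binds there.

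How closely the table resolved these promoters differed between genes. Windows were defined by CpG number, with a median of 51 CpG dinucleotides and 5817 bp over the whole table, so CpG-dense sequence gives short windows. Tdrd1 had the shortest promoter window, 1194 bp, from position -487 to 706 relative to its start site, including exon 1 of 26. The windows of Sycp1 (1425 bp), Hormad1 (2046 bp) and Sycp3 (2400 bp) also held the start site and at least part of exon 1. The Mael window (3365 bp) lay upstream and ended on the start site itself, and 19 of the 24 CpGs in the Mael promoter were covered. The Dazl window (1259 bp, chr17:50293689-50294947) ended 53 bp upstream of the start site, and the Ddx4 window (5438 bp) 127 bp upstream. Both start sites fell in gaps between windows. Counted from the GENCODE start sites, 15 of 27 CpGs in the Dazl promoter and 12 of 38 in the Ddx4 promoter were thus covered. Slc25a31 was the opposite case, since its only window ran over 442700 bp and 3225 CpG dinucleotides and also held the start sites of 1700034I23Rik, Abhd18, Hspa4l, Intu, Mfsd8 and Plk4. Its value describes that region and not its promoter. Windows over 100000 bp made up 0.0557% of the table.

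Methylation was measured at the promoter windows of all 7 genes other than Slc25a31 in every library, at intermediate levels. Means over the 6 libraries fell from 68.1% at Dazl to 30.7% at Tdrd1.

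Dazl encodes an RNA-binding protein that promotes translation in germ cells. Its promoter window measured 66.0%, 67.2% and 86.2% in the G1 libraries, against 67.7%, 53.8% and 67.9% in the G2/M libraries, in the order of replicates 1 to 3. G1 replicate 3 was highest and G2/M replicate 2 lowest, with the other 4 libraries within a narrow band. Ddx4, or Vasa, is an RNA helicase of the germ line. Its upstream window measured 67.3%, 82.9% and 63.8% in G1, against 60.5%, 55.7% and 77.7% in G2/M. The groups overlapped, and the mean of 68.0% was close to that of Dazl although the window was longer.

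Mael acts in the piRNA pathway, which silences transposons in the male germ line. Its promoter measured 45.5%, 44.9% and 57.1% in G1, against 68.7%, 53.6% and 71.9% in G2/M. The G2/M values were mostly higher, but G1 replicate 3 lay above G2/M replicate 2. Tdrd1 is a Tudor-domain protein that binds PIWI proteins in the same pathway. It measured 31.9%, 24.5% and 35.2% in G1, against 26.1%, 43.6% and 22.6% in G2/M. Its promoter was the lowest of the 8 on average, and its highest library, G2/M replicate 2, stayed below every library of Dazl.

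Sycp1, Hormad1 and Sycp3 act on meiotic chromosomes. Sycp1 forms the transverse filaments of the synaptonemal complex, and its promoter measured 52.2%, 40.0% and 55.8% in G1, against 50.5%, 60.3% and 41.2% in G2/M. Hormad1, a protein of unsynapsed chromosome axes, measured 35.6%, 45.1% and 56.7% in G1, against 40.9%, 41.9% and 68.5% in G2/M. Sycp3, a component of the lateral elements, measured 31.8%, 40.8% and 47.2% in G1, against 30.3%, 60.2% and 33.7% in G2/M. At all 3 genes the phases overlapped, and the libraries of a single phase were often as far apart as the phases. The long window around Slc25a31, which encodes an ADP/ATP carrier of the testis, measured 70.6%, 75.0% and 81.7% in G1, against 75.7%, 62.1% and 75.6% in G2/M.

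**Figure D1:**
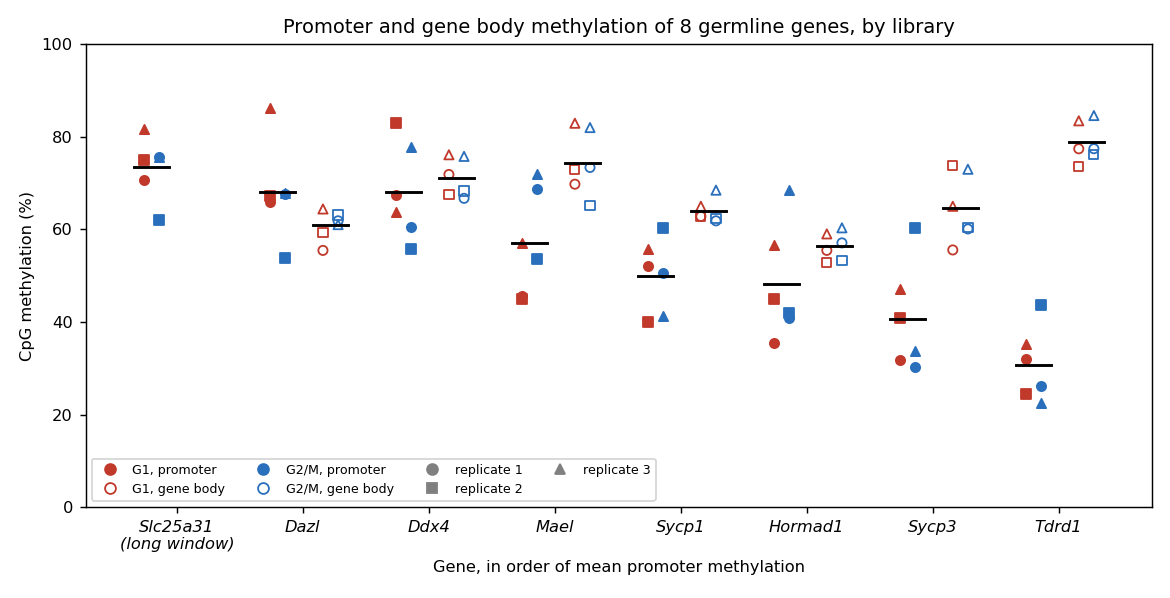
CpG methylation (%) of the promoter window (filled symbols) and the mean of the gene body windows (open symbols) of each gene, in G1 (red) and G2/M (blue) libraries, with symbol shape giving the replicate number and bars the mean of 6 libraries. Promoter means run from 73.4% at the long Slc25a31 window and 68.1% at Dazl down to 30.7% at Tdrd1, whose gene body lies at 78.7%.

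The ranges over libraries overlapped in all 7 neighbouring pairs of this order. Dazl exceeded Ddx4 by 0.15 percentage points ± 13.4 (SD of the differences over 6 libraries) and was higher in 2 of the 6. Ddx4 exceeded Mael by 11.0 ± 16.4, and Sycp1 exceeded Hormad1 by 1.90 ± 17.1. These differences were smaller than their spread. Sycp3 exceeded Tdrd1 by 9.99 ± 6.70, and the Slc25a31 window exceeded Dazl by 5.29 ± 5.00, each in 5 of 6 libraries. Over longer distances in the order the genes did separate. Dazl (53.8% to 86.2%) and Tdrd1 (22.6% to 43.6%) did not overlap.

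Of 21853 annotated protein-coding genes, 17689 had a promoter window, and the others enter no rank or median here. Against these 17689 genes, the levels lay in the middle and upper range. The median promoter stood at 44.5% and the median over the 8 genes at 54.9%, or 53.2% over the 7 genes without the long Slc25a31 window. The share of promoters with a lower mean was 83.1% for Dazl, 82.7% for Ddx4, 62.5% for Mael, 55.2% for Sycp1, 53.3% for Hormad1, 46.3% for Sycp3 and 36.7% for Tdrd1. Promoter methylation, however, differed with window length. The median was 1.28% over 2434 genes with promoter windows of 1500 bp or less, 21.6% for 1500 to 3000 bp, 48.8% for 3000 to 6000 bp, 65.7% for 6000 to 12000 bp and 63.0% for the 2493 genes above that.

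Set against promoters whose windows were no longer than their own, the germline genes stood near the top. Each such set is made up of shorter windows, most of them less methylated, so these shares run high. Among 1898 such genes for Dazl, 99.9% had a lower promoter, and their median was 0.667%. For Sycp1 the share was 99.9% of 2266 genes, and for Tdrd1, the least methylated gene, 99.7% of 1725 genes with a median of 0.575%. Hormad1 exceeded 99.0% of 3788 genes, Sycp3 95.9% of 4728, Mael 94.8% of 7335 and Ddx4 90.7% of 11395. Slc25a31, whose window was longer than nearly all, exceeded 93.2% of 17531, a rank of that region and not of its promoter. Among windows of 3000 to 6000 bp, where the quartiles were 33.2% and 65.5%, Mael (57.0%) lay between them and Ddx4 (68.0%) above. Among those of 1500 to 3000 bp, where the upper quartile was 32.5%, Sycp3 (40.7%) and Hormad1 (48.1%) lay above it.

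**Figure D2:**
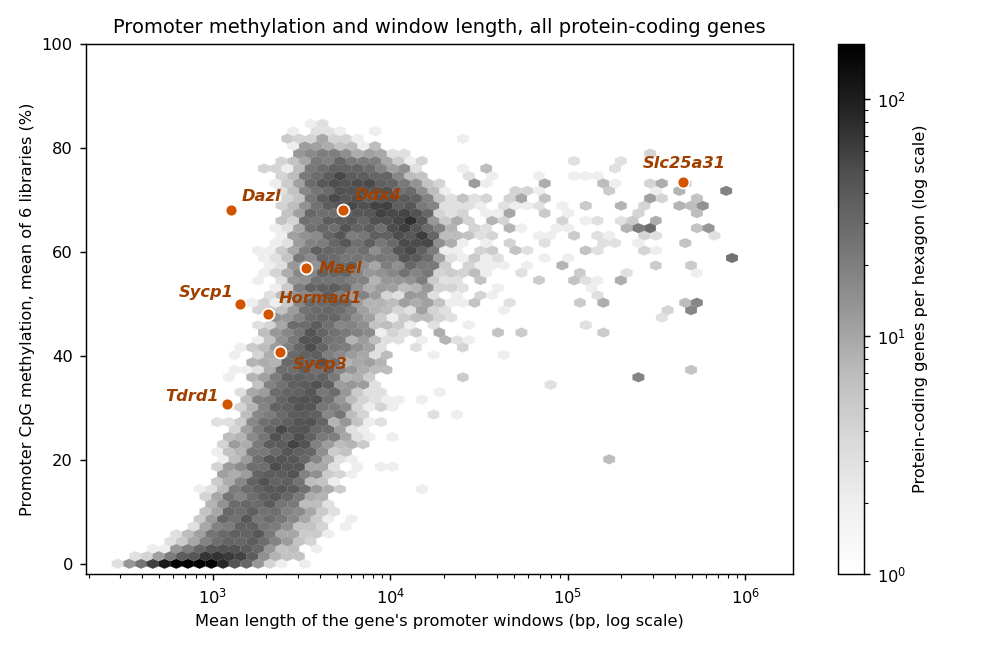
Promoter CpG methylation (mean of 6 libraries, %) against the mean length of the promoter windows (bp, log scale) for 17689 protein-coding genes, with grey shade giving the number of genes per hexagon on a log scale and orange points the 8 germline genes. Dazl, Sycp1 and Tdrd1 lie at the upper left edge, where genes with windows of 1500 bp or less have a median of 1.28%, while Slc25a31 lies far to the right.

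Methylation at or above the Tdrd1 mean was rare at such short windows. It was found at 24 of the 2434 genes with windows of 1500 bp or less, or 0.986%, and Dazl, Sycp1 and Tdrd1 were 3 of the 24. Because Tdrd1, the lowest of the germline genes, set the cutoff, the place of these 3 among the 24 was given in advance. Dazl ranked below only Gm37388, which stood at 75.6%, and Sycp1 came next at 50.0%. Among the other genes on this list, picked out after their values were seen, were Dmrtb1 at 39.6%, a gene of the transition from mitosis to meiosis in spermatogonia, Taf9b at 49.0% and Plekhg4 at 47.6%.

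On average, the bodies of the genes were methylated above those of all genes. The mean over the bodies of the 7 genes that had body windows was 67.0% ± 3.48 in G1 and 67.2% ± 4.30 in G2/M (SD, n = 3 libraries each). Over all genes, the mean of the bodies was 59.4% ± 4.28 and 59.1% ± 4.21, and it was below that of the 7 genes in 6 of 6 libraries. As medians over the genes, the bodies stood at 65.5% for the 7 genes and 63.1% for all. In G1 replicate 3 alone the order of the medians turned, with 65.0% for the 7 genes and 68.5% for all. Tdrd1 had the highest body, at 78.7%, and Hormad1 the lowest, at 56.3%.

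Promoters were compared with bodies as a difference of log2 ratios of methylated to unmethylated percentage. The test was the limma fit over 15156 genes with Benjamini-Hochberg adjustment, in which the promoter was lower at 61.9% of genes and higher at 10%. At 4 of the 7 germline genes the promoter was lower, a count near that background. Tdrd1 differed most, by -3.12 ± 0.30 (SE, adjusted p = 2.56e-06), and its promoter minus body difference was -48.1 percentage points on average. Sycp3 differed by -1.46 ± 0.30 (adjusted p = 0.000924), Mael by -1.14 ± 0.19 (adjusted p = 0.000214) and Sycp1 by -0.84 ± 0.23 (adjusted p = 0.00686). At these 4 genes the promoter was below the body in 6 of 6 libraries.

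The remaining 3 promoter windows were not distinguished from the bodies of their genes. The Ddx4 window, from position -5564 to -127, covered 12 of the 38 CpGs of its promoter. Its comparison therefore describes mostly upstream sequence and leaves the Ddx4 promoter itself largely unmeasured. Hormad1 differed by -0.50 ± 0.23 (adjusted p = 0.0757), with a lower promoter in 5 of 6 libraries, and Ddx4 by -0.17 ± 0.26 (adjusted p = 0.569). The body of Hormad1 included a window at 32.2% that also held the start site of the neighbour Golph3l, beside windows at 63.3% and 73.4%. The part of that low window in the comparison was not tested. Dazl was the one gene whose promoter mean was above its body, by 0.42 ± 0.21 (adjusted p = 0.102), or 7.31 percentage points. The median over the 7 genes was -0.84, against -1.20 over all genes tested. Without G2/M replicate 3, Hormad1 passed the threshold as well, giving 5 genes with a lower promoter.

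Along the genes, the promoter stood out most at Tdrd1. Its promoter window at 30.7% was followed without a gap by a window inside the first intron at 73.8%, and all 12 body windows averaged between 73.8% and 86.9%. Upstream, methylation was 53.2% in the adjoining window of 3347 bp and then 0.26% in a 394-bp window that held the start of the neighbouring gene Ccdc186. That neighbour's window was listed at 0 in 5 of 6 libraries, so a methylated and an unmethylated promoter lay within a few kilobases of each other.

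Inside Sycp1, Sycp3 and Dazl the first body window was the lowest of the body. The first body window of Sycp1 (4956 bp, exons 2 to 7) averaged 47.8%, close to its promoter, whereas the other 8 body windows averaged 56.2% to 72.8%. The first body window of Sycp3 (9776 bp, exons 2 to 7) averaged 54.9%, with libraries from 36.6% to 74.7%, and the next one 74.4%. At Dazl, the window over exons 2 to 10 averaged 44.9% with all libraries between 40.3% and 49.0%, which was below the promoter mean, and the window over exon 11 averaged 76.7%.

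Ddx4 and Mael had evenly methylated bodies. The 8 body windows of Ddx4 averaged 66.5% to 76.0%, and the promoter window fell within that range. The 4 body windows of Mael averaged 70.4% to 78.3%, with its 2 flank windows at 74.2% and 75.0%, so the promoter was the only low window of that locus. The last body window of Hormad1, over exons 14 to 16, averaged 32.2%. That window also held the start site of the neighbour Golph3l, whose part in the low value was not tested.

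**Figure D3:**
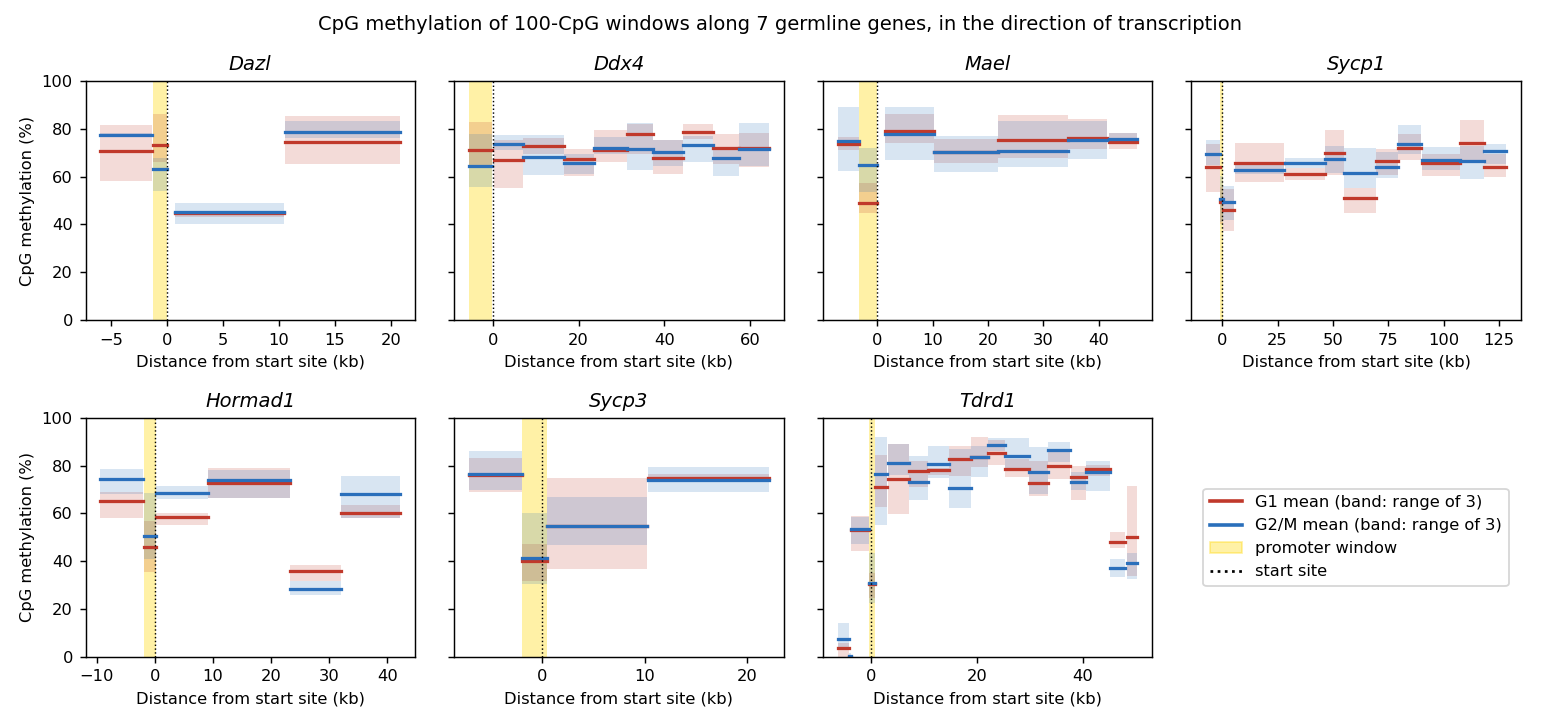
CpG methylation (%) of every window along the 7 genes other than Slc25a31 against distance from the start site (kb, in the direction of transcription), with lines for the mean of 3 G1 (red) or 3 G2/M (blue) libraries, shaded bands for their range and yellow for the promoter window. Tdrd1 shows a narrow dip to 30.7% between windows at 53.2% and 73.8%, and in Dazl the lowest window, at 44.9%, lies inside the gene.

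None of the 62 windows passed the limma test of G1 against G2/M. In the limma fit over all 359192 windows, 8 windows of the table were called at an adjusted p under 0.05, or 0.00223%, and none of the 8 lay at the germline genes. With the replicate number as a block, limma called 0 in the table, with 17356 windows (4.83%) and 3 of the 62 at an unadjusted p under 0.05. At an unadjusted p under 0.05 limma gave 7566 windows, or 2.11%, and 0 of the 62. The G1 mean was higher in 26 of the 62 windows (41.9%), against 57.1% of all windows. That count was 19 without G1 replicate 3 and rose to 39 without G2/M replicate 3, with 31 and 33 without G1 replicates 1 and 2, so single libraries set which phase was more often higher. G1 was higher in all 3 same-numbered comparisons at 6 windows, where the share in the table was 16.3%, and G2/M at 7, where the share was 9.74%. The phases did not overlap at 4 windows. At 1 of them all G1 values were the higher (4.12% of the table), and at 3 the lower (1.98% of the table).

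Over the 8 promoters the mean was 54.4% ± 5.41 in G1 and 54.6% ± 2.49 in G2/M (SD, n = 3 libraries), a difference of -0.23 percentage points. The same-numbered differences were -2.42, -1.35 and 3.09. With the 3225-CpG window of Slc25a31 left out, the means were 51.3% and 52.2%. The median over the 8 promoters gave another picture, with 50.2% ± 6.08 in G1 and 59.5% ± 7.53 in G2/M, lower in G1 in all 3 same-numbered comparisons. The G1 mean was higher at 3 of the 8 promoter windows, those of Dazl, Ddx4 and Slc25a31. Why the mean and the median differed was not tested. Across all promoters the mean was 41.7% in G1 and 41.3% in G2/M.

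The Mael promoter had the largest difference of the 62 windows. Its mean was 49.2% ± 6.89 in G1 and 64.7% ± 9.73 in G2/M (SD, n = 3), and the same-numbered differences were -23.2, -8.71 and -14.7 percentage points. In the limma fit the log2 ratio differed by -0.92 ± 0.41 (SE, unadjusted p = 0.0513, adjusted p = 1, with alternatives from 0.894 to 1). The difference was thus not distinguished from the spread between libraries over this many windows. Measured from its own body, the Mael promoter stood at -24.2, -28.1 and -25.8 percentage points in the G1 libraries and at -4.70, -11.6 and -10.1 in the G2/M libraries. The phases did not overlap in this difference. Of the 7 genes, Mael was the only one with every G1 library below every G2/M library (4.22% of 15156 genes) and Dazl the only one with every G1 library above (4.3%). The phase term of the limma fit on the log2 ratio had an adjusted p of 0.990 for Mael and 0.999 for Dazl, and no gene of the 15156 passed (695, or 4.59%, at an unadjusted p under 0.05, Mael among them at 0.0217).

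The other 2 windows with the largest differences of one direction lay at Tdrd1, and in both G1 was higher. The first, chr19:56840988-56845073 over exons 6 to 11, measured 84.5%, 75.5% and 88.3% in G1, against 63.1%, 62.3% and 86.8% in G2/M. G2/M replicate 3 stood with the G1 libraries, so the phases overlapped (limma log2 ratio 0.89 ± 0.59, adjusted p = 1, with alternatives from 0.894 to 1). The second, chr19:56871369-56874192 downstream of the gene, measured 46.8%, 52.1% and 45.7% in G1, against 37.7%, 41.0% and 33.3% in G2/M. It was the 1 germline window in which every G1 library exceeded every G2/M library (limma log2 ratio 0.63 ± 0.34, adjusted p = 1, with alternatives from 0.894 to 1). The 3 windows with every G1 library below lay in the bodies of Sycp1 (2 windows) and Hormad1.

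At several promoters the difference within a replicate number was larger than the mean difference between phases. Sycp1, Sycp3 and Tdrd1 shared a pattern, seen after their values were known and not tested. In replicate 2, G1 minus G2/M was -20.3 percentage points at Sycp1, -19.4 at Sycp3 and -19.0 at Tdrd1. In replicate 3 the same differences were 14.5, 13.5 and 12.7. The G2/M library of replicate 2 was the highest of all 6 at each of these 3 promoters, and it was the lowest of all 6 at Dazl and Ddx4. Ddx4 ran the other way, with a difference of 27.2 in replicate 2 and -14.0 in replicate 3. The coverage of these windows, and so its part in these differences, was not tested.

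**Figure D4:**
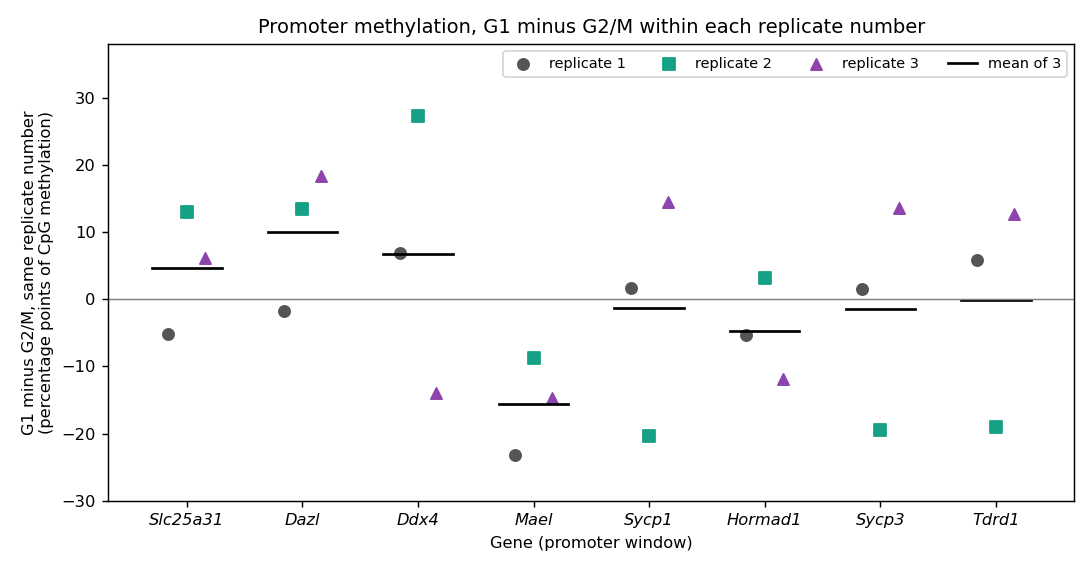
Difference in promoter methylation between the G1 and G2/M libraries of the same replicate number (percentage points) for each gene, with symbol shape and colour giving the replicate and bars the mean of 3. At Mael all 3 differences are below 0 (-23.2, -8.71 and -14.7), and at Sycp1, Sycp3 and Tdrd1 replicate 2 lies near -20 and replicate 3 above 10.

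Other genes of the same programmes, from lists drawn up by function, had promoters over the whole range. In the piRNA pathway, 16 further genes had a median of 53.2%, and 12 of them stood at 30% or more. They ran from Tdrd7 (0.71%, window of 374 bp) and Tdrd12 (15.1%) to Gtsf1 (66.3%) and the PIWI gene Piwil4 (66.4%). Of the 15 with a tested body, 11 had a lower and 1 a higher promoter. Over all genes tested, 61.9% had a lower and 10% a higher promoter, the background for the counts of every list here. Among 14 further genes of the meiotic axis and synapsis, the median was 45.6% and 12 stood at 30% or more. The cohesin subunits Smc1b (4.54%) and Stag3 (6.65%) were lowest, in contrast to Sycp1 and Sycp3, and Terb1 (65.9%) and Syce3 (68.6%) were highest. Of 12 tested, 8 had a lower promoter.

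A list of germ cell genes drawn up around RNA binding and translational control held 8 genes besides Dazl and Ddx4, with a median of 42.4%. They ran from Ddx25, listed at 0 in every library, to Tex101 at 78.5%, whose place in that function was not checked. Boll, a relative of Dazl, had 14.6%, and Nanos3 61.6%. Of the 7 tested, 3 had a lower and 1 a higher promoter. For meiotic recombination and entry, 10 genes had a median of 36.5%, from Msh4 (3.23%) and Meiob (19.07%) to Rec114 (59.6%) and Mei1 (76.4%), and 8 of 9 tested were lower than their bodies and 1 higher. The 9 genes of spermatid function and testis metabolism had the highest median, 61.0%, but also the longest windows, 2 of them over 100000 bp, whose values describe regions. They ran from Prm1 (49.8%) and Brdt (57.9%) to the Pgk2 kinase (74.7%) and the transition protein Tnp1 (78.9%), with 2 of 5 tested lower than their bodies. The list of meiotic axis and synapsis and that of meiotic recombination and entry also each held 1 gene with a window over 100000 bp.

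The last lists held repressors of germline genes and genes used in every cell. Of the 19 listed repressors of germline genes, 12 had a promoter window, with a median of 41.2%. Uhrf1, the partner of DNMT1 at replicated DNA, was listed at 0 in every library and Max at 0.79%, whereas Dnmt3b stood at 54.7% and Atf7ip at 58.3%, and 9 of 12 promoters were lower than their bodies and 1 higher. Of 20 genes used in every cell, 11 had a promoter window, with a median of 21.8% and a range from Eef2 (3.83%) and Tbp (4.10%) to Vcp (32.0%) and Ywhaz (50.7%), and 5 were lower and 3 higher than their bodies. The median window length ran from 2965 to 5675 bp over these lists, longer than the windows of Dazl, Sycp1 and Tdrd1, so the lists are not matched in resolution. As a profile over the 6 libraries, the median of the 8 germline promoters, with the long Slc25a31 window included, was shared by many genes. Of 17523 genes, 578 lay within 6 percentage points of it on average, the nearest being Uchl4 at 1.83, Tas2r117 at 1.96, Olfr206 at 2.07, Bfsp1 at 2.11 and Mroh4 at 2.13.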

How the data were processed

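EM-seq libraries of 3 G1 and 3 G2/M samples were compared. The authors trimmed reads with Trim Galore 0.6.4, aligned them with Bismark 0.22.1 and bowtie2 to GRCm38/mm10, discarded duplicate and poorly mapped reads and outlier regions, and deposited the percent CpG methylation of each window in each library. A window was kept if a minimum share of its CpGs was observed in all libraries, so a percentage can rest on few reads, and no read counts, coverage or depth accompany the values.

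The start site was that of the principal transcript in GENCODE vM21 (GRCm38). Promoter windows overlapped 250 bp before to 50 bp after it, gene body windows were all others that overlapped the gene, and flank windows were the rest of the interval. Promoter sequences came from RefSeq (GRCm38.p6), which held all 8 genes. The tests used lmFit and eBayes with a trend from limma 3.58.1 (R 4.3.3), on windows and on promoter-body differences, as log2((percent + 1)/(100 - percent + 1)), two-sided, with Benjamini-Hochberg adjustment over all windows or genes. This stands in for the logistic regression on counts in the study's methods. The fits were tested on simulated data. Python 3.11.15, numpy 2.4.6, pandas 2.3.3 and matplotlib 3.10.9 were used.

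Libraries of one number were set side by side because the study sequenced matched replicates. The correlations of their deviations from the group means were 0.0274, 0.0310 and 0.0549, and those of other pairs ran from -0.0299 to -0.00144. The study's methods describe the libraries of each phase as biological replicates. The labels do not say that libraries came from separate cultures, so p-values measure the spread between these libraries. The members and gene lists were chosen with earlier results of these data known. All 8 genes were named, with the 3 windows of largest difference in one direction in every same-numbered comparison, the 2 highest and 2 lowest promoters of each list and the 5 promoters nearest the members' median profile. Alternatives changed the offset, scale, centring, block, trend, filter, promoter definition, start site and libraries. Leaving out Slc25a31 was added after its window length was seen.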

Additional observations from a re-analysis of the deposited data

How the results depend on the processing

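No window at the germline genes was called under any alternative run. Over the whole table the 8 called windows became 1 when the offset was 5 percentage points. They became 0 on the percent scale, with libraries centred on their median, with the replicate block, without the eBayes trend and over windows of 10% to 90% methylation. With a library left out, 26 to 46 were called. Of the promoter and gene body differences, Mael, Sycp3, Sycp1 and Tdrd1 kept their direction and passed in all alternatives, and the number of germline genes with a lower promoter was 4 to 5. Ddx4 ran from -0.47 to 0.036 with a library left out, positive without G1 replicate 3, and Hormad1 to 0.14 with promoters of 1000 bp before to 500 bp after the start. The mean G1 minus G2/M difference of the promoters became -9.23 as a median over the genes and ran from -3.27 to 1.90 with a library left out, and that of the gene bodies from -2.17 to 2.20. Without Slc25a31 it was -0.93. Paired by replicate number, it kept its mean of -0.23 with an SD of 2.92 over the 3 differences. The replicate block changed no call at the germline genes. Over all genes, those with a lower promoter went from 9387 to 9379 with it, and those with a higher promoter from 1518 to 1505. The median promoter level was 52.2% to 56.8% with a library left out, and 49.5% over the 6 genes whose window held the start site. The cause of these shifts was not tested. Without counts, the precision of single windows is unknown.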
